A study of Mus musculus with 16 samples.

Results

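Tnf sits inside the major histocompatibility complex (MHC, called H2 in the mouse) on chromosome 17, and the genes described here are its neighbours on both sides. The set is a list of 49 named genes. A gene was counted as found where a probe set of the array had that gene's symbol as its only symbol, and 46 of the 49 were found, each through 1 probe set, among 19938 genes tested in the series. Ncr3, Csnk2b and Gnl1 were not found by this rule and are not analysed here. Notch4 also appears in 6 probe sets that carry a second symbol, which were not used. Tnf is not a member and serves as the point distances are measured from.

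Distances run between the start of a gene and the start of Tnf in the RefSeq annotation of GRCm38.p6, with negative values towards Notch4, at -637.7 kb, and positive values towards Abcf1, at 767.7 kb. The 31 members between Notch4 and Ddx39b belong to the class III region, a dense stretch of genes without classical antigen-presenting molecules. The other 15, between Pou5f1 and Abcf1, lie beyond the class I gene H2-Q4, which starts at 177.6 kb. They are therefore neighbours on the class I side and not class III genes, and the set is called here the MHC genes flanking Tnf.

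RNA came from whole brain of male mice aged 8 weeks and was measured on Affymetrix Mouse Gene 1.0 ST arrays, with 4 arrays in each of 4 groups. These were mice labelled TNF knockout and C57BL/6 mice at 24 h after permanent middle cerebral artery occlusion (pMCAO), and naive mice labelled TNF knockout and naive C57BL/6 mice. In pMCAO a main artery of the forebrain is closed for good, which gives an ischaemic stroke. Sham-operated mice were not among the groups, so a stroke difference holds surgery and occlusion together. The labels give neither the design of the TNF allele nor the strain it was made in, and they do not say that each array came from a separate animal. Where it did not, p-values measure only the spread between these samples. All C57BL/6 sample names begin with KL42, while those labelled TNF knockout begin with KL76 (naive 1 to 3, stroke 1) or KL82 (naive 4, stroke 2 to 4). What the prefix stands for is not given, and between genotypes prefix and genotype cannot be told apart.

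The MHC is one of the most gene-dense parts of the genome. Its class III region holds complement genes, the Tnf and lymphotoxin genes, and many genes for transcription, RNA handling and protein quality control that every cell uses. A gene next to a targeted allele is inherited together with it, and the genotype differences of this set are given by distance from Tnf. All members start within 767.7 kb of Tnf. At such distances all of them may be inherited with the allele, so their order by distance cannot tell whether they were. Tnf itself encodes the inflammatory cytokine TNF, which in the brain is made mainly by microglia and infiltrating myeloid cells after ischaemia.

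Values are log2 probe set summaries between 1.42 and 14.53, with array medians of 6.01 to 6.05, and correlations between arrays of a group of 0.991 to 0.996. No detection calls were used, so a low value cannot be placed above or below background, and the number of arrays limits the precision. Neuronal markers averaged 10.71 to 10.80 in stroke arrays labelled TNF knockout, 10.75 to 10.77 in C57BL/6 stroke arrays, and 10.77 to 10.88 in all naive arrays. As a check of the labels, Tnf read 6.60 to 6.99 in the stroke arrays labelled TNF knockout, against 5.28 to 5.68 in the C57BL/6 stroke arrays. In naive brain it read 6.14 to 6.58 in the arrays labelled TNF knockout, against 5.01 to 5.72 in C57BL/6. The Tnf probe set was thus 2.36-fold higher after stroke and 2.15-fold higher in naive brain, against the label (limma, adjusted p = 0.0001 and adjusted p = 0.000558). Which part of the gene the probes cover is not given, and a probe set outside a deleted part checks nothing, so "KO-labelled" is used for these arrays throughout.

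The promoter windows of Tnf and of the 3 members that passed the test in any comparison are printed because the results turn on these genes. Each runs 250 bases before to 50 bases after the gene's start in RefSeq GRCm38.p6, on the gene's strand. Capitals mark matches on either strand to the letters TATAAA for the TATA box, CCAAT for the box of that name, GGGCGG for the GC box, TGANTCA for the AP-1 site, and GGGA followed after 4 bases by CC for a kappaB-like motif.
Tnf, chr17:35201958-35202257, minus strand: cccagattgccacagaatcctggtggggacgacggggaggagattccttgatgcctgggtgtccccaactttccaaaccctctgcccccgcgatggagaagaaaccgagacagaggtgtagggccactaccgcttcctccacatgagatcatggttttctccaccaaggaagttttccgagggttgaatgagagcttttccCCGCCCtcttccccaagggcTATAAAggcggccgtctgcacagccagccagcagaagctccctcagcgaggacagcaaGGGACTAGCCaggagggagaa
Gtf2h4, chr17:35673694-35673993, minus strand: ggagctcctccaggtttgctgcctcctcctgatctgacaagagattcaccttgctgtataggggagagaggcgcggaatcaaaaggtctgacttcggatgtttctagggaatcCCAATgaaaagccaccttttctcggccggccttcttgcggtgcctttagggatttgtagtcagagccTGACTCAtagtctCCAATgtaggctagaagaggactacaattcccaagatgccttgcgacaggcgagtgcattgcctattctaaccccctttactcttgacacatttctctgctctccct
Egfl8, chr17:34615922-34616221, minus strand: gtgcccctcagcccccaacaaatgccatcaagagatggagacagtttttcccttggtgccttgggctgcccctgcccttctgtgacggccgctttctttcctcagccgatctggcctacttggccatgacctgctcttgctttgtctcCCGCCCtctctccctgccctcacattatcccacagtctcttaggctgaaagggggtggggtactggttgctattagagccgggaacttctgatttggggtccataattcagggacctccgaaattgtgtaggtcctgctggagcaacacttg
Clic1, chr17:35049993-35050292, plus strand: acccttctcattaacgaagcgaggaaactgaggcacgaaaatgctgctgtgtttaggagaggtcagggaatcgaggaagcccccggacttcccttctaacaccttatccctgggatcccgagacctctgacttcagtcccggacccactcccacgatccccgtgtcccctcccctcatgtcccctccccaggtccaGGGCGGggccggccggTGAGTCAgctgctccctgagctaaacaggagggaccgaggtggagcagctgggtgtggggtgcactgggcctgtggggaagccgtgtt
The Tnf window held a TATA box starting at position -29, a GC box at -49 and a kappaB-like match at 30. The Gtf2h4 window held CCAAT boxes at -137 and -57 with an AP-1 match at -70. Egfl8 had 1 GC box at -102. Clic1 had a GC box at -54 and an AP-1 match at -38. No matches overlapped in these windows. These letters are common. Of 32851 promoter windows of this length 7.81% held the AP-1 letters, 13.6% TATAAA, 20.7% the kappaB-like letters, 35.7% GGGCGG and 37.4% CCAAT. Windows were given for 38 of the 46 members, of which 5 held the AP-1 letters, 1 TATAAA, 7 the kappaB-like letters, 26 GGGCGG and 17 CCAAT.

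Between the genotypes, the MHC genes flanking Tnf differed little. After stroke 1 of 46 passed the threshold (limma, adjusted p under 0.05 over all genes), Gtf2h4, which was lower in KO-labelled brain. The share called over all genes was 0.436% in either direction and 0.271% lower. An unadjusted p under 0.05 was found for 2 members, where 11.3% of all genes had one. In naive brain 0 of 46 passed, against 0.386% of all genes, and 7 members had an unadjusted p under 0.05, all lower in KO-labelled brain, where 16.6% of all genes did. With both conditions averaged, 2 of 46 passed, Gtf2h4 and Egfl8, both lower, against 2.62% of all genes in either direction and 1.26% lower, and 10 members had an unadjusted p under 0.05, where 19.4% of all genes did. The difference of the stroke change between genotypes passed in 0 members and in 0 genes overall. At an unadjusted p under 0.05 it had 3 members and 7.42% of all genes, and it was below 0 in 19 members and 51.1% of all genes.

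Small shifts below 0 were frequent. The genotype difference (KO-labelled minus C57BL/6, log2) was below 0 in 28 of 46 members after stroke, where 52.1% of all genes were below 0. In naive brain it was below 0 in 39 of 46, where 50.9% of all genes were, and averaged in 42 of 46, beside 52.8%. The members' median was -0.05 after stroke and -0.10 in naive brain, beside -0.01 and 0.00 over all genes tested. The 213 other tested genes within 5 Mb of Tnf had medians of -0.01 and -0.04. In 21 further class III genes the medians were -0.01 after stroke and -0.10 in naive brain, where 15 were below 0. In 17 class I and class II genes they were -0.02 and -0.14, with 12 below 0 in naive brain. A naive median this far below 0 was thus not particular to the members. Of the 213 other genes within 5 Mb, 134 were below 0 in naive brain and 127 averaged. Averaged, 13 of the 21 class III genes and 13 of the 17 class I and class II genes were below 0. The share below 0 was larger in the members than in these sets, in naive brain and averaged, and this was not tested. After stroke, KO-labelled and C57BL/6 arrays did not overlap in 1 member, lower in KO-labelled brain, against 2.76% of all genes, and 0 members had all KO-labelled arrays higher, against 3.04%. In naive brain they did not overlap in 4 members (Gtf2h4, Egfl8, Ddr1 and Ppp1r18), all lower, against 4.15% of all genes, and in 0 members were all KO-labelled arrays higher, against 4.5%. The members' 2 sets of genotype differences, which share no array, had the same sign in 25 of 46 cases (54.3%, Spearman's rho 0.21 across genes, which are not independent), beside 58.9% and 0.27 over all genes.

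The median SE of a member's genotype difference was 0.1 in either condition. The 95% interval lay within 1.5-fold in both directions for 45 of 46 members after stroke, all but Gtf2h4, and for 46 of 46 in naive brain.

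**Figure D1:**
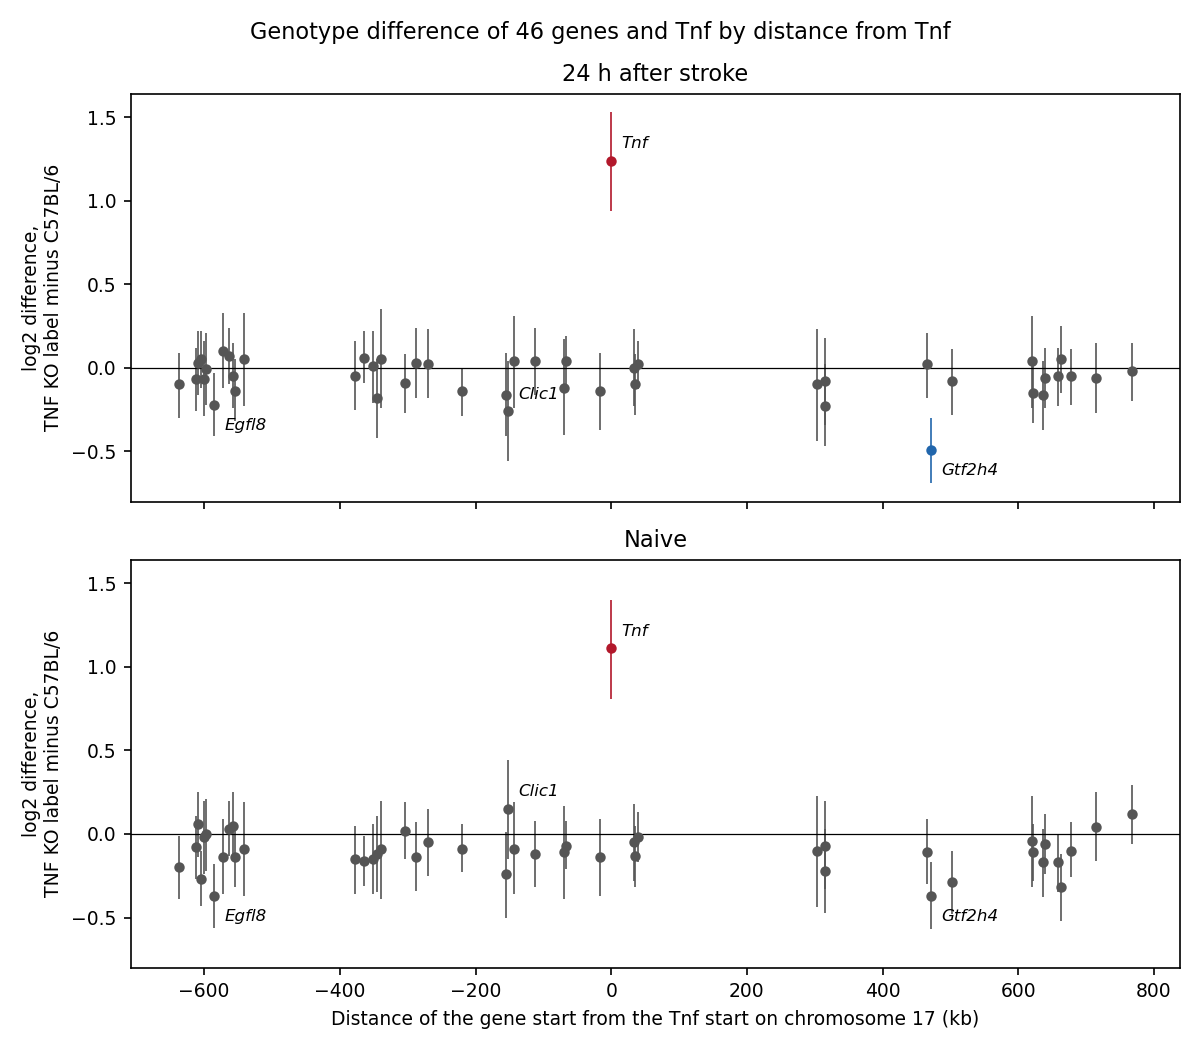
Genotype difference (log2, KO-labelled minus C57BL/6, vertical axis) of the 46 genes and Tnf against distance from the Tnf start (kb, horizontal axis), after stroke above and in naive brain below. Points are limma estimates and bars 95% intervals (n = 4 arrays per group). Tnf stands at 1.24 and 1.11, Gtf2h4 at -0.49 and -0.37, and the other 45 genes between -0.26 and 0.10 after stroke and between -0.37 and 0.15 in naive brain.

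Distance from Tnf did not order the differences. Across the 46 genes Spearman's rho between the genotype difference and distance in kb was 0.08 after stroke and -0.03 in naive brain (Pearson's r 0.06 and -0.04). These are descriptions over genes that share all arrays. For the size of the difference without its sign rho was -0.03 and 0.08. The 6 members within 100 kb had a median of -0.05 after stroke and -0.09 in naive brain, and the 14 members 600 to 800 kb away had -0.06 and -0.09. Both members that passed the test lay 300 to 600 kb away, Gtf2h4 at 471.7 kb and Egfl8 at -585.4 kb, on opposite sides.

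The 4 members closest to Tnf start within 40 kb of it and showed no genotype difference past the threshold. Lst1, at -16.9 kb, is a leukocyte-specific transcript. It read 5.31, 5.22, 5.04 and 5.49 in KO-labelled stroke arrays, against 5.74, 5.42, 5.28 and 5.19 in C57BL/6 stroke arrays. In naive brain its values were 5.29, 5.22, 5.23 and 5.29 in KO-labelled arrays, against 5.34, 5.27, 5.55 and 5.42 in C57BL/6 arrays. The groups overlapped in both conditions, and the difference was -0.14 ± 0.11 (SE) each time (adjusted p = 0.669 and adjusted p = 0.545).

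Atp6v1g2, at 32.9 kb, encodes a brain-enriched subunit of the vacuolar proton pump that acidifies synaptic vesicles and lysosomes. Stroke arrays read 11.36, 11.33, 11.66 and 11.59 in KO-labelled brain, against 11.28, 11.28, 11.63 and 11.74 in C57BL/6 brain. Naive arrays read 11.40, 11.41, 11.52 and 11.61 in KO-labelled brain, against 11.40, 11.48, 11.59 and 11.66 in C57BL/6 brain. The ranges covered each other, with differences of 0.00 ± 0.11 and -0.05 ± 0.11 (adjusted p = 0.994 and adjusted p = 0.856).

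Nfkbil1, at 34.5 kb, encodes a nuclear protein related to the inhibitors of NF-kappaB. After stroke it read 6.52, 6.58, 6.64 and 6.73 in KO-labelled arrays, against 6.83, 6.63, 6.70 and 6.71 in C57BL/6 arrays. Its naive readings were 6.75, 6.69, 6.64 and 6.68 in KO-labelled arrays, against 6.84, 6.68, 6.70 and 7.08 in C57BL/6 arrays. The groups overlapped, with differences of -0.10 ± 0.09 and -0.13 ± 0.09 (adjusted p = 0.713 and adjusted p = 0.446). Ddx39b, at 39.7 kb, encodes an RNA helicase of splicing and mRNA export. It differed by 0.02 ± 0.07 and -0.02 ± 0.07, and its 16 readings all lay between 9.43 and 9.66.

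A little further out, 3 class III genes on the Notch4 side and the nearest member on the class I side did not pass either. Bag6, a chaperone that guides tail-anchored proteins to the endoplasmic reticulum, lies at -66.9 kb and differed by 0.04 ± 0.07 after stroke and -0.07 ± 0.07 in naive brain. Apom, an apolipoprotein that carries sphingosine-1-phosphate, lies at -70.2 kb and differed by -0.12 ± 0.13 and -0.11 ± 0.13. Abhd16a, a hydrolase that makes lysophosphatidylserine in brain, lies at -112.8 kb and differed by 0.04 ± 0.10 and -0.12 ± 0.10. Pou5f1, the pluripotency factor Oct4, lies at 304.0 kb and differed by -0.10 ± 0.16 in both conditions. The adjusted p of these 4 genes was 0.533 or more in both conditions.

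Gtf2h4 was the member with the largest genotype difference. It encodes the p52 subunit of TFIIH, the complex that opens DNA at promoters and in nucleotide excision repair. Its KO-labelled stroke arrays read 6.32, 6.69, 6.49 and 6.51, against 7.08, 6.97, 6.88 and 7.05 in C57BL/6 stroke arrays. The naive arrays read 6.44, 6.27, 6.58 and 6.59 in KO-labelled brain, against 6.78, 6.97, 6.70 and 6.91 in C57BL/6 brain. All 8 KO-labelled arrays therefore lay below all 8 C57BL/6 arrays.

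The Gtf2h4 difference was -0.49 ± 0.09 after stroke (1.41-fold lower, adjusted p = 0.0177) and -0.37 ± 0.09 in naive brain (adjusted p = 0.084), and -0.43 ± 0.07 with both averaged (1.35-fold lower, adjusted p = 0.00128). The stroke call was lost in 4 of 16 fits that left out 1 array: C57BL/6 stroke array 4, or KO-labelled stroke array 1, 3 or 4. It was also lost when only the 2 stroke groups were fitted (adjusted p = 0.06). Among the KO-labelled arrays the stroke group holds 1 KL76 array and the naive group 1 KL82 array, so a fit to 1 prefix assumes that this lone array varies like the others, and the prefixes were not compared. With only KL76 arrays the differences were -0.67 after stroke, -0.41 in naive brain and -0.54 averaged, and with only KL82 arrays they were -0.43, -0.25 and -0.34. The KL76 average had an adjusted p of 0.0116 in limma, and the other 5 values did not pass. The stroke change did not differ between genotypes beyond its error (-0.12 ± 0.13, adjusted p = 0.838).

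Neither gene beside Gtf2h4 passed the threshold. Vars2, which encodes the mitochondrial valyl-tRNA synthetase, starts at 465.6 kb and differed by 0.02 ± 0.09 after stroke and -0.11 ± 0.09 in naive brain. Ddr1, a collagen receptor kinase at 502.7 kb, differed by -0.08 ± 0.09 and -0.29 ± 0.09 (adjusted p = 0.784 and adjusted p = 0.136). In naive brain Ddr1 read 7.81, 7.74, 7.61 and 7.69 in KO-labelled arrays, against 7.86, 8.05, 7.96 and 8.14 in C57BL/6 arrays, without overlap. Whether neighbours differed from Gtf2h4 was not tested.

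Egfl8, a secreted protein with epidermal growth factor-like repeats related to the endothelial factor Egfl7, was the other member past the threshold between genotypes. It read 6.53, 6.31, 6.36 and 6.41 in KO-labelled stroke arrays, against 6.64, 6.69, 6.45 and 6.71 in C57BL/6 stroke arrays. Its naive values were 6.51, 6.33, 6.10 and 6.41 in KO-labelled brain, against 6.68, 6.66, 6.66 and 6.82 in C57BL/6 brain. The naive groups did not overlap, while after stroke 1 C57BL/6 array lay below the highest KO-labelled one.

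Averaged over both conditions Egfl8 differed by -0.29 ± 0.06 (1.23-fold lower, adjusted p = 0.0193), a call that all 16 fits without 1 array gave. Singly it was -0.22 ± 0.09 after stroke (adjusted p = 0.364) and -0.37 ± 0.09 in naive brain (adjusted p = 0.082). The averaged call was lost with only KL76 arrays (-0.24, adjusted p = 0.338) and with only KL82 arrays (-0.28, adjusted p = 0.129) among the KO-labelled, again with 1 group of 1 array in each fit. Ppt2, at -564.0 kb, encodes a lysosomal thioesterase and differed by 0.07 ± 0.08 and 0.03 ± 0.08.

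Among the cell type markers only Cldn5 and Mag passed the threshold between genotypes, both lower in KO-labelled brain. Pecam1, Cdh5, Flt1 and Tek of endothelium did not pass, nor did Mbp, Mog and Mobp of oligodendrocytes. The tight junction gene Cldn5 of endothelium was lower in KO-labelled brain by -0.54 ± 0.11 after stroke (adjusted p = 0.0396), and the myelin gene Mag by -0.27 ± 0.07 averaged (adjusted p = 0.0424). The mean of 5 endothelial markers was 6.69 to 6.72 in KO-labelled stroke arrays, against 6.75 to 7.13 in C57BL/6 stroke arrays, and 6.81 to 6.89 in naive KO-labelled arrays, against 6.67 to 6.93 in naive C57BL/6 arrays. Oligodendrocyte markers, 4 of 5 found, averaged 9.48 to 9.67 in KO-labelled stroke arrays, against 9.70 to 10.07 in C57BL/6 stroke arrays. In naive brain they averaged 9.67 to 9.79 in KO-labelled arrays, against 9.67 to 9.95 in C57BL/6 arrays. In bulk tissue fewer cells of a type and less RNA per cell cannot be told apart. The part of these cells in the Gtf2h4 and Egfl8 results was not tested.

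**Figure D2:**
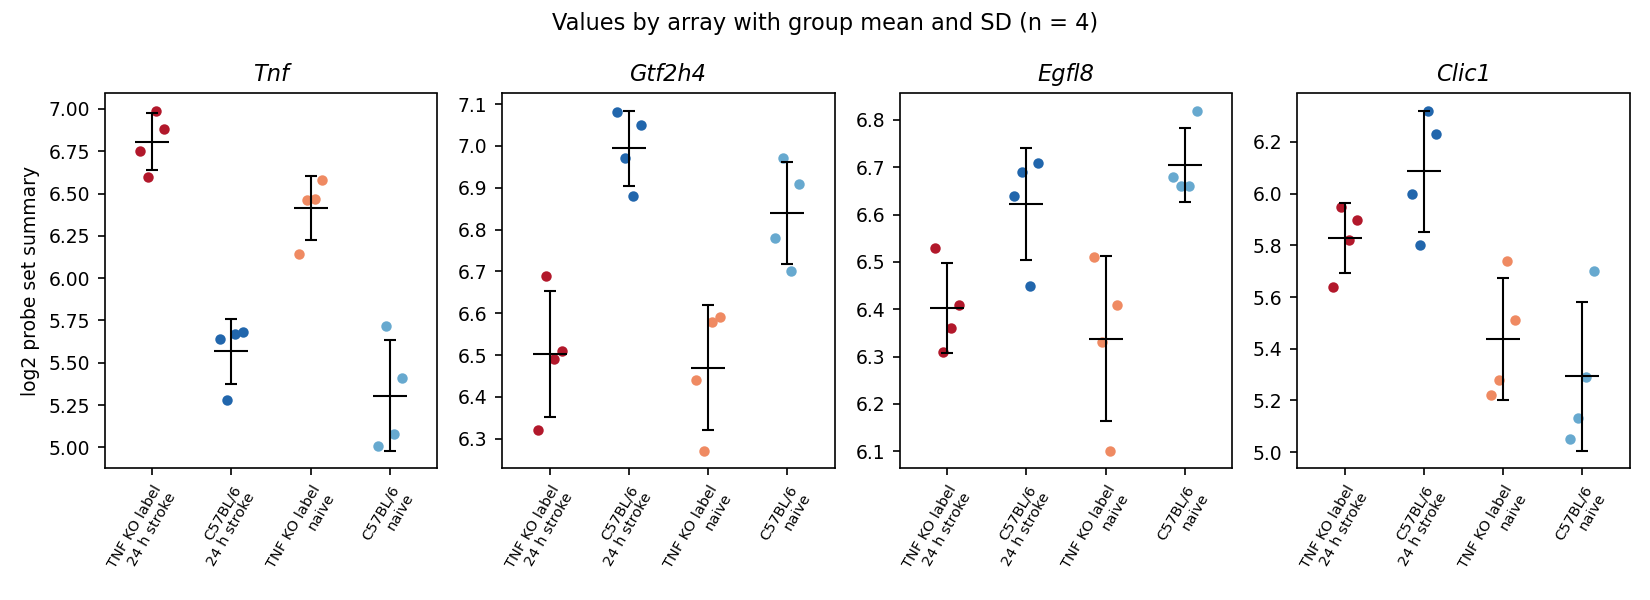
Log2 probe set summaries (vertical axis) of Tnf, Gtf2h4, Egfl8 and Clic1 in each array, with the group mean and SD (n = 4). Tnf was higher in every KO-labelled array than in any C57BL/6 array, and Gtf2h4 was lower in all 8. Egfl8 averaged 6.40 and 6.34 in KO-labelled stroke and naive brain against 6.62 and 6.71 in C57BL/6. Clic1 had its highest group mean in C57BL/6 stroke arrays, where 1 array overlapped the KO-labelled stroke arrays.

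The 7 members of immune and inflammatory signalling had no genotype call, with medians of -0.07 after stroke and -0.12 in naive brain. With 0.436% of all genes called after stroke and 0.386% in naive brain, a set of this size would seldom hold a call. C2 encodes a protease component of the classical and lectin complement pathways. It read 5.07, 4.80, 4.73 and 4.34 in KO-labelled stroke arrays, against 4.74, 4.60, 4.72 and 4.66 in C57BL/6 stroke arrays, and the difference was 0.05 ± 0.14 (adjusted p = 0.922). Naive C2 values were 5.11, 4.92, 4.53 and 4.47 in KO-labelled arrays, against 5.05, 4.75, 4.86 and 4.74 in C57BL/6 arrays (-0.09 ± 0.14, adjusted p = 0.775). In both conditions the KO-labelled arrays spread around the C57BL/6 ones.

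Cfb, the matching protease of the alternative pathway, read 4.95, 5.07, 4.63 and 4.50 in KO-labelled stroke arrays, against 5.11, 5.06, 4.82 and 4.90 in C57BL/6 stroke arrays (-0.18 ± 0.11, adjusted p = 0.557). Its naive values were 4.82, 4.81, 4.55 and 4.82 in KO-labelled arrays, against 4.78, 4.96, 4.87 and 4.88 in C57BL/6 arrays (-0.12 ± 0.11, adjusted p = 0.602). Again the groups overlapped. Ager encodes RAGE, a receptor for glycated proteins and danger signals. It differed by 0.05 ± 0.08 after stroke and -0.27 ± 0.08 in naive brain (adjusted p = 0.867 and adjusted p = 0.126). Gpsm3, a modulator of inhibitory G proteins in leukocytes, differed by -0.07 ± 0.09 and -0.08 ± 0.09. Ier3, a stress-induced gene that modulates cell death, differed by 0.04 ± 0.13 and -0.04 ± 0.13.

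Nuclear proteins of transcription, RNA and DNA were the largest group with 15 members. After stroke 1 was lower (Gtf2h4), against 0.271% of all genes. None of the others passed, where 0.436% of all genes did in either direction, so few calls would be found in a group of this size. The medians of the 15 members were -0.06 after stroke and -0.10 in naive brain. Dxo, which removes faulty mRNA caps, had the largest positive value among them after stroke, 0.06 ± 0.07 (adjusted p = 0.793), and -0.16 ± 0.07 in naive brain (adjusted p = 0.275). Msh5, a meiotic MutS protein, differed by -0.16 ± 0.12 and -0.24 ± 0.12. Lsm2, part of the ring that binds U6 small nuclear RNA, differed by -0.14 ± 0.07 and -0.09 ± 0.07. Atf6b, a membrane-bound transcription factor of the endoplasmic reticulum stress response, differed by -0.14 ± 0.09 in both. Pbx2, a homeodomain cofactor, had one of the 3 largest positive naive values at 0.06 ± 0.09 (adjusted p = 0.795) and 0.03 ± 0.09 after stroke.

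The other members of this group also stayed short of the threshold. Ehmt2, the histone H3 lysine methyltransferase G9a, differed by -0.09 ± 0.08 after stroke and 0.02 ± 0.08 in naive brain. Nelfe, a subunit of the complex that pauses RNA polymerase II, differed by 0.01 ± 0.10 and -0.15 ± 0.10. Stk19, a nuclear protein of transcription-coupled DNA repair, differed by -0.05 ± 0.10 and -0.15 ± 0.10. Mdc1, a DNA damage checkpoint protein, differed by -0.06 ± 0.09 in both conditions. Dhx16, a splicing helicase, differed by -0.05 ± 0.08 and -0.10 ± 0.08. Nrm, the nuclear envelope protein nurim, differed by -0.05 ± 0.08 and -0.17 ± 0.08. Tcf19, a chromatin reader with a PHD finger, differed by -0.08 ± 0.13 and -0.07 ± 0.13.

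The 9 members for matrix, receptors, membrane scaffolds and cytoskeleton had the lowest medians, -0.10 after stroke and -0.20 in naive brain. All 9 naive differences were below 0, as were all 7 of the immune group, beside 50.9% of all genes. None of the 9 passed the threshold within 1 condition, against 0.436% of all genes after stroke and 0.386% in naive brain. Egfl8 alone passed averaged, against 2.62% of all genes. Ppp1r18, the actin-binding phosphatase subunit phostensin, read 5.32, 5.36, 5.42 and 5.20 in naive KO-labelled arrays, against 5.49, 5.57, 5.60 and 5.92 in naive C57BL/6 arrays. These did not overlap (-0.32 ± 0.10, adjusted p = 0.121), while after stroke it read 5.59, 5.29, 5.63 and 5.63 in KO-labelled arrays, against 5.51, 5.47, 5.52 and 5.43 in C57BL/6 arrays (0.05 ± 0.10, adjusted p = 0.884). Cchcr1, a coiled-coil protein of centrosomes and P-bodies, differed by -0.23 ± 0.12 and -0.22 ± 0.12 (adjusted p = 0.487 and adjusted p = 0.355). Notch4, a Notch receptor of endothelium, differed by -0.10 ± 0.09 and -0.20 ± 0.09 (adjusted p = 0.716 and adjusted p = 0.289).

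Of the others in that group, Prrt1, which accompanies AMPA-type glutamate receptors, had the largest positive value of all members after stroke, 0.10 ± 0.11 (adjusted p = 0.777), and -0.14 ± 0.11 in naive brain. Flot1, a scaffold of membrane microdomains, differed by -0.15 ± 0.08 and -0.11 ± 0.08. Tubb5, a beta-tubulin with close paralogues that its probes may not separate, differed by -0.16 ± 0.10 and -0.17 ± 0.10. Tnxb, the matrix protein tenascin-X, differed by 0.05 ± 0.13 and -0.09 ± 0.13.

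Translation, protein quality control and metabolism held the rest, with no genotype call among 15 members. Over all genes the share called was 0.436% after stroke and 0.386% in naive brain. Abcf1, a translation initiation factor at the far end of the class I side, had the second largest positive naive value, 0.12 ± 0.08 (adjusted p = 0.498), and -0.02 ± 0.08 after stroke. Mrps18b, a protein of the mitochondrial ribosome, differed by -0.06 ± 0.10 after stroke and 0.04 ± 0.10 in naive brain. Rnf5, a ubiquitin ligase of the endoplasmic reticulum, differed by -0.07 ± 0.11 and -0.02 ± 0.11. Fkbpl, a cochaperone of HSP90, differed by -0.05 ± 0.09 and 0.05 ± 0.09. Neu1, the lysosomal sialidase, differed by 0.02 ± 0.10 and -0.05 ± 0.10.

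Agpat1, which acylates lysophosphatidic acid, differed by -0.01 ± 0.10 after stroke and 0.00 ± 0.10 in naive brain. Slc44a4, a choline transporter-like protein, differed by 0.03 ± 0.10 and -0.14 ± 0.10. Ddah2, of the family that degrades methylarginines, differed by 0.04 ± 0.13 and -0.09 ± 0.13. Clic1 is taken up with the stroke response below, and between genotypes it differed by -0.26 ± 0.14 after stroke and 0.15 ± 0.14 in naive brain (adjusted p = 0.513 and adjusted p = 0.633).

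Seen along all of chromosome 17, calls between genotypes were not gathered around Tnf. With both conditions averaged, 2 of the 99 other tested genes within 1 Mb of Tnf passed, both lower and both members. Between 1 and 5 Mb 3 of 160 were higher and 2 lower. At 5 to 10 Mb 3 of 142 were higher and 7 lower, and at 10 to 20 Mb 8 of 261 were higher and 13 lower. Beyond 20 Mb 5 of 277 were higher and 7 lower. Over all 940 tested genes of chromosome 17, Tnf included, 20 were higher and 31 lower. Both are larger shares than the 1.35% higher and 1.26% lower among all genes tested. The median difference was -0.06 within 1 Mb and between -0.03 and -0.01 in the classes farther out.

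**Figure D3:**
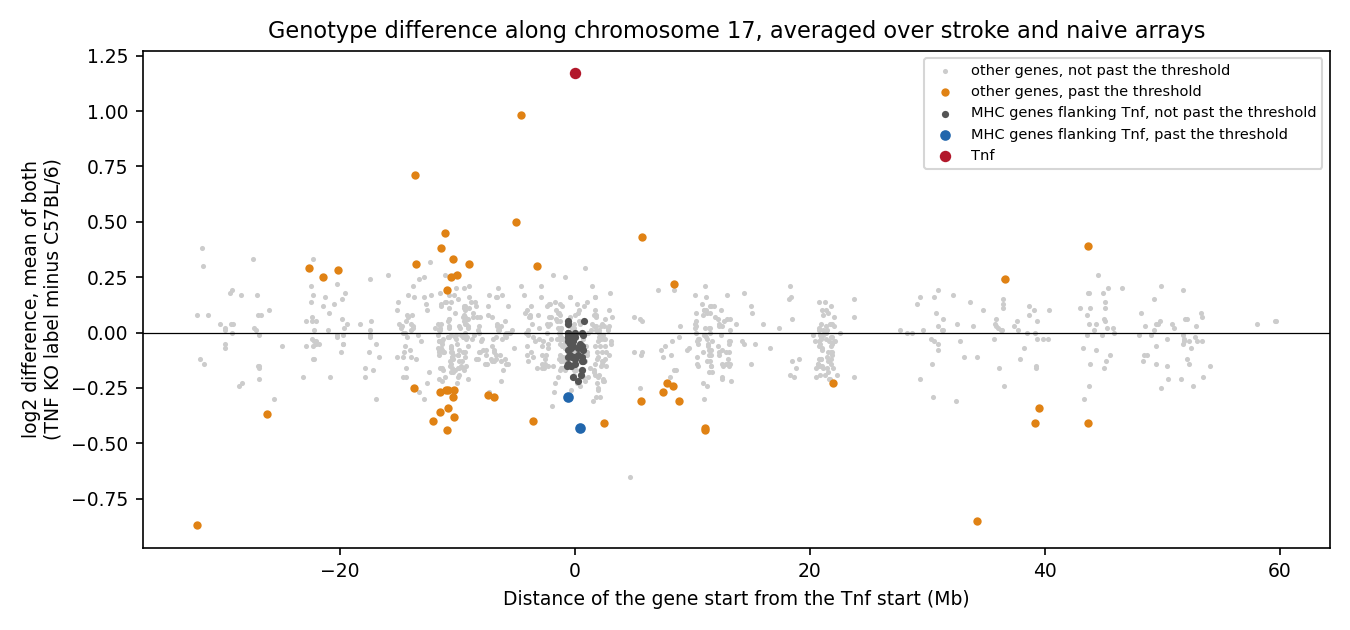
Genotype difference averaged over stroke and naive arrays (log2, KO-labelled minus C57BL/6) of the tested genes of chromosome 17 against distance from the Tnf start (Mb). Coloured points passed the threshold. Around Tnf itself, at 1.17, the flanking MHC genes lie between -0.43 and 0.05 with Gtf2h4 and Egfl8 marked, and most marked genes lie more than 5 Mb away.

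Listed MHC genes that are not members gave no genotype call either. Of 23 further class III genes 21 were found and 0 passed in either condition or averaged. Among them Lta, the lymphotoxin alpha gene 3.6 kb from Tnf, differed by 0.23 ± 0.11 after stroke and -0.08 ± 0.11 in naive brain (adjusted p = 0.439 and adjusted p = 0.761). Ltb, its partner at -7.5 kb, differed by -0.12 ± 0.08 and -0.04 ± 0.08 (adjusted p = 0.634 and adjusted p = 0.853). Of 27 class I and class II genes 17 were found, and 0 passed between genotypes. Over all genes 0.436% passed after stroke, 0.386% in naive brain and 2.62% averaged, so 0 in lists this small says little. Complement genes outside the MHC, 12 of 16 found, had C1qc lower in KO-labelled brain after stroke (-0.65 ± 0.11, limma adjusted p = 0.00565). C1qc was also lower averaged (-0.43 ± 0.08, limma adjusted p = 0.00526), as was C1qa (-0.34 ± 0.07, limma adjusted p = 0.0202).

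Stroke changed few of these genes. In KO-labelled brain 0 of 46 passed, against 0.642% of all genes in either direction and 0.537% higher, and 4 had an unadjusted p under 0.05, where 8.39% of all genes did. In C57BL/6 brain 1 of 46 passed, Clic1, which was higher after stroke, against 1.68% of all genes in either direction, 1.34% higher and 0.336% lower. An unadjusted p under 0.05 was found for 7 members, where 17.1% of all genes had one. The members' median stroke difference was 0.03 in KO-labelled brain, with 18 of 46 below 0 (50.1% of all genes), and -0.06 in C57BL/6 brain, with 30 of 46 below 0 (51.4% of all genes). Stroke and naive arrays did not overlap in 1 member with higher stroke values, Ier3, and 1 with lower ones, Tubb5, in KO-labelled brain, against 2.8% and 3.07% of all genes. In C57BL/6 brain they did not overlap in 2 members with higher values, Clic1 and Abcf1, and 2 with lower values, Bag6 and Dxo, against 5.03% and 3.23% of all genes.

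Clic1 encodes a protein that switches between a soluble and a membrane chloride channel form and is known from activated microglia. It lies at -151.8 kb. In KO-labelled brain it read 5.64, 5.95, 5.82 and 5.90 after stroke, against 5.22, 5.28, 5.74 and 5.51 in naive arrays. In C57BL/6 brain it read 6.00, 5.80, 6.32 and 6.23 after stroke, against 5.05, 5.13, 5.29 and 5.70 in naive arrays. The C57BL/6 stroke arrays all lay above the C57BL/6 naive ones, while the KO-labelled groups overlapped through 1 stroke and 1 naive array.

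The Clic1 change was 0.39 ± 0.14 in KO-labelled brain (1.31-fold, adjusted p = 0.375) and 0.80 ± 0.14 in C57BL/6 brain (1.74-fold, adjusted p = 0.0062). The C57BL/6 call held in all 16 fits without 1 array and in the other settings run, with adjusted p between 0.00112 and 0.0354. The difference between the changes was -0.41 ± 0.20 (adjusted p = 0.677), so a difference of the response between genotypes was not shown. With the prefix as a term the KO-labelled change was 0.30 (adjusted p = 0.737), and it was 0.23 within KL76, where 1 stroke array stands against 3 naive arrays, and 0.38 within KL82, where 3 stroke arrays stand against 1 naive array. These values rest on a single array on one side and show no spread there.

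Among the cell type markers only the astrocyte filament gene Gfap passed the threshold after stroke, higher by 0.83 ± 0.15 in KO-labelled brain (adjusted p = 0.00705) and 0.72 ± 0.15 in C57BL/6 brain (adjusted p = 0.0154). The mean of 5 neutrophil and monocyte markers was 4.19 to 4.50 in KO-labelled stroke arrays, against 4.18 to 4.24 in KO-labelled naive arrays, and 4.30 to 4.61 in C57BL/6 stroke arrays, against 4.24 to 4.46 in C57BL/6 naive arrays. Microglial markers, 4 of 5 found, averaged 6.66 to 6.96 in KO-labelled stroke arrays, against 6.80 to 7.08 in KO-labelled naive arrays, and 6.90 to 7.14 in C57BL/6 stroke arrays, against 6.96 to 7.04 in C57BL/6 naive arrays. The part of these cells in the Clic1 result was not tested.

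Ier3 did not pass the threshold, with the largest stroke value of the members in KO-labelled brain and the next after Clic1 in C57BL/6 brain. It read 6.74, 6.25, 6.10 and 6.13 in KO-labelled stroke arrays, against 5.95, 5.80, 5.86 and 5.86 in KO-labelled naive arrays, without overlap (0.44 ± 0.13, adjusted p = 0.229). In C57BL/6 brain it read 6.50, 6.27, 6.31 and 5.99 after stroke, against 5.85, 5.69, 5.92 and 6.19 in naive arrays, with overlap (0.35 ± 0.13, adjusted p = 0.18). Pou5f1 had the largest negative values, -0.30 ± 0.16 in both genotypes (adjusted p = 0.666 in KO-labelled brain and adjusted p = 0.355 in C57BL/6).

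Both complement proteases of the set stayed short of the threshold. The stroke difference of C2 was -0.02 ± 0.14 in KO-labelled brain (adjusted p = 0.993) and -0.17 ± 0.14 in C57BL/6 brain (adjusted p = 0.572). That of Cfb was 0.04 ± 0.11 (adjusted p = 0.978) and 0.10 ± 0.11 (adjusted p = 0.686). The complement component gene C4b, which lies in the class III region at -473.9 kb but is not a member, was higher after stroke by 0.46 ± 0.10 in KO-labelled brain (adjusted p = 0.0453) and 0.61 ± 0.10 in C57BL/6 brain (adjusted p = 0.00352). Outside the MHC the receptor genes C3ar1 and C5ar1 were higher after stroke in both genotypes, C5ar1 by 1.17 ± 0.17 in KO-labelled and 1.35 ± 0.17 in C57BL/6 brain. C1qc passed in C57BL/6 brain only (0.43 ± 0.11, limma adjusted p = 0.0497), with 0.00 ± 0.11 in KO-labelled brain. The difference between its changes did not pass (-0.44 ± 0.16, limma adjusted p = 0.57). The class I gene H2-Q4 was higher by 0.66 ± 0.12 in KO-labelled brain (adjusted p = 0.0118) and 0.53 ± 0.12 in C57BL/6 brain (adjusted p = 0.035). It was the only one of the 17 class I and class II genes found to pass.

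**Figure D4:**
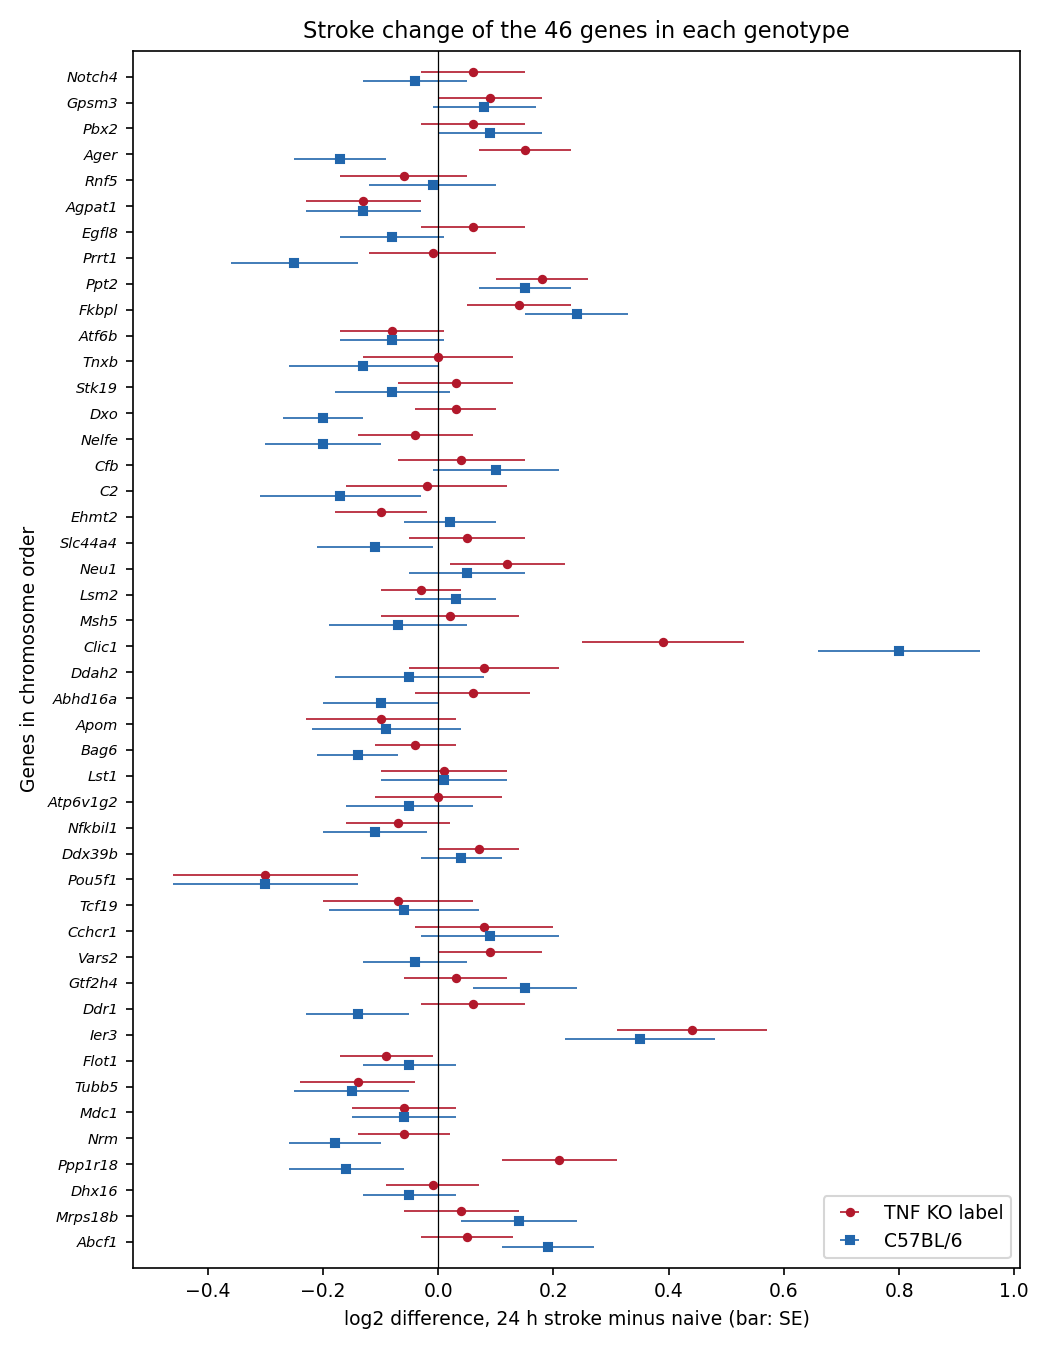
Stroke change (log2, 24 h stroke minus naive, horizontal axis) of the 46 genes in chromosome order, with circles for KO-labelled and squares for C57BL/6 brain and bars for the SE. Clic1 at 0.39 and 0.80 and Ier3 at 0.44 and 0.35 lie to the right, Pou5f1 at -0.30 in both to the left, and the other genes between -0.25 and 0.24.

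The stroke changes of the 2 genotypes, which share no array, had the same sign in 30 of 46 members (65.2%, Spearman's rho 0.47 and Pearson's r 0.69 across genes), beside 56.2%, 0.21 and 0.40 over all genes. These are descriptions over genes that share arrays. The 3 members with an unadjusted p under 0.05 for the difference of the stroke change were Ppp1r18 (0.37 ± 0.14, adjusted p = 0.583), Ager (0.32 ± 0.11, adjusted p = 0.583) and Dxo (0.22 ± 0.10, adjusted p = 0.663). In each, stroke minus naive was higher in KO-labelled than in C57BL/6 brain. Stroke minus naive was 0.15 ± 0.08 in KO-labelled brain and -0.17 ± 0.08 in C57BL/6 brain for Ager, and for Dxo it was 0.03 ± 0.07 and -0.20 ± 0.07. None of these passed the test over all genes.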

How the data were processed

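The values are log2 probe set summaries of 16 arrays, deposited by the authors, 1 array per sample. Per the submitters' processing notes GCOS, GCRMA, Partek and RMA were used, without versions or order. The arrays had been normalised to each other, as their medians show. Symbols came from the platform annotation: of 28944 probe sets 21789 had 1 symbol, 1621 several and 5534 none, and only the first kind was used, with the highest mean over arrays where a gene had several. Dim probe sets were kept.

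A model of 4 group means was fitted to all 16 arrays and 19938 genes with limma 3.58.1 in R 4.3.3 (lmFit, eBayes). Tests were two-sided, with Benjamini-Hochberg adjustment over all genes and a threshold of 0.05. Groups came from the labels. The comparisons were KO-labelled against C57BL/6 after stroke, in naive brain and averaged, stroke against naive in each genotype, and the difference of the stroke changes. Distances used RefSeq GRCm38.p6 starts, and for 8 members without a strand in the promoter table (Rnf5, Nelfe, Stk19, Cfb, C2, Lst1, Dxo and Flot1) the lower coordinate. The deposited files name no build. The scripts were tested on simulated data. Further tools were matplotlib 3.10.9 for figures and pandas 2.3.3 with numpy 2.4.6 for tables, under Python 3.11.15.

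The members and lists were chosen with earlier results of these data known. All members found are named. Fuller statistics go to members past the threshold, the 3 largest genotype differences in each direction and condition, the 4 nearest Tnf on each side, C2 and Cfb. Ager, Ddr1, Ier3 and other members with fuller values were chosen with their values known. Alternatives tried were each array left out, the prefix as a random block or a fixed term, a block on replicate number, a fit of the compared groups alone, trended and robust variances, averaged probe sets per gene, a filter on the dimmest 33.3 percent of genes, centring on array medians, and quantile normalization. Fits with only KL76 or only KL82 arrays were added after seeing the data.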

Additional observations from a re-analysis of the deposited data

Results flagged for a closer look

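Within a group of 4 arrays, a value stood apart when its gap to the nearest other array was too large a share of the group's range by Dixon's 95% critical value. Of 188 sets of 4 examined for Tnf and the 46 members 16 did so, and chance flags about 1 set in 20.

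In KO-labelled stroke arrays, array 1 was high for Dxo at 6.72, beside 6.58 to 6.60 in the others, low for Tubb5 at 10.41, beside 10.57 to 10.60, and low for Abcf1 at 7.84, beside 8.08 to 8.12. Array 2 was low for Ppp1r18 at 5.29, beside 5.59 to 5.63, and array 4 was low for Ager at 6.02, beside 6.13 to 6.15. Of the naive KO-labelled arrays, array 2 was low for Stk19 at 6.50 (others 6.60 to 6.61) and Fkbpl at 6.78 (others 7.07 to 7.11). Array 3 was low for Cfb at 4.55 (others 4.81 to 4.82) and high for Tubb5 at 10.78 (others 10.64 to 10.65).

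C57BL/6 stroke array 2 was low for Tnf at 5.28 (others 5.64 to 5.68), and array 3 was low for Ddah2 at 5.59 (others 6.18 to 6.29) and Ppt2 at 6.67 (others 6.79 to 6.81). Naive C57BL/6 array 3 was high for Tnxb at 5.91 (others 5.38 to 5.45). Array 4 of that group was high for Egfl8 at 6.82 (others 6.66 to 6.68), Rnf5 at 9.20 (others 8.67 to 8.75) and Flot1 at 8.70 (others 8.47 to 8.49).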

How the results depend on the processing

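The count of members past the threshold in naive brain (0) was 2 without the dimmest 33.3 percent of genes (Gtf2h4 and Egfl8, with fewer genes tested), 1 with the replicate block (Egfl8), and 0 to 1 over the fits leaving out 1 array (1, Egfl8, without naive KO-labelled array 1). After stroke the count (1) was 0 with only the groups compared, 0 with only KL76 arrays and 0 with only KL82 arrays among the KO-labelled, where fewer arrays entered, and 0 to 1 leaving out 1 array. Averaged over both conditions the count (2) was 1 with only KL76 arrays, 0 with only KL82 arrays, and 2 in all 16 fits leaving out 1 array. The counts for the stroke changes (0 in KO-labelled, 1 in C57BL/6) and for their difference (0) were the same in every setting run.

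The correlation of the averaged genotype difference with distance was 0.03, and -0.17 with only KL82 arrays; the cause was not tested. Leaving out 1 array it lay between -0.06 and 0.09, and it lay between -0.1 and 0.12 after stroke and between -0.13 and 0.09 in naive brain. By the number of genes between a member and Tnf rho was 0.23 after stroke, 0.03 in naive brain and 0.17 averaged. Single genes were followed under other settings for Tnf and the members picked by rule for fuller statistics. For most of them this covered only the genotype difference in each condition. Of these values 1484 kept their side of the threshold, most of them never called, while 12 lost a call and 4 gained one. The Gtf2h4 call after stroke was kept in 12 of 16 fits without 1 array. No called value changed sign. The Tnf difference lost its call with only KL76 arrays after stroke (1.18, adjusted p = 0.102) and with only KL82 arrays in naive brain (1.27, adjusted p = 0.105), where 1 KO-labelled array was left in the group and is assumed to vary like the others.

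Arrays with the same replicate number were correlated between -0.07 and 0.34 in their deviations from the group means, over 0.1 in 9 of 24 pairs. Arrays with different numbers were not set beside them, so these values do not settle whether the numbers pair the samples. The main fit used no pairing. The replicate block left the other counts at 1, 2, 0, 1 and 0. With the prefix as a random block the consensus correlation was 0.017. A fixed prefix term could be fitted for the stroke changes only. Without detection calls, how far dim probe sets such as those of Apom or C2 lie above background is not known.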
